A study of Mus musculus with 8 samples.

Results

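A set of 8 genes for chemokine and chemoattractant receptors were examined in macrophages sorted from mouse pancreatic islets: Cx3cr1, Ccr1, Ccr2, Cxcr4, Ccrl2, Cmklr1, Fpr1 and Fpr2. They were taken by matching these 8 symbols to the symbol column of the deposited table, which lists 48440 genes; each symbol matched 1 row. The cells were CD11b and F4/80 double-positive, from male wild-type C57BL/6J mice that were 16 weeks old. From 8 weeks of age one group ate a high-fat diet (HFD) and the other ate chow, in both cases for 8 weeks. The HFD was 45% fat, 35% carbohydrate and 20% protein, with an energy density of 19.67 kJ/g. Chow was 8% fat, 71% carbohydrate and 21% protein, with an energy density of 10.88 kJ/g. There were 4 libraries on each diet (HFD replicates 5 to 8 and chow replicates 1 to 4), and each library pooled islets from 2 mice, so the spread between libraries understates that between mice.

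Chemoattractant receptors are G-protein-coupled receptors of leukocytes that sense a gradient of a secreted ligand, and most signal through Gi-type G proteins to steer migration. Chemokine receptors bind small secreted or membrane-bound chemokines, while formyl peptide receptors bind peptides released by bacteria and damaged mitochondria, and chemerin receptors bind the adipose and liver product chemerin. In mouse mononuclear phagocytes, Cx3cr1 is known as a marker of many tissue-resident cells and Ccr2 as the receptor that lets inflammatory monocytes leave the bone marrow.

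Library totals were 4532503 to 5917920 counts in HFD and 4288665 to 6391247 counts in chow. Levels compared between libraries are CPM, counts scaled by TMM to a common library size, and levels compared between genes are TPM, which also correct for exon length. The sort markers were present in both diets: Adgre1, which encodes F4/80, averaged 415 CPM in HFD and 501 CPM in chow, and Itgam, which encodes CD11b, averaged 334 CPM in HFD and 310 CPM in chow. Transcripts of other islet and pancreas cells were also present. Endocrine cell markers summed to 870 to 1743.5 CPM in HFD and 432 to 1715 CPM in chow. Acinar cell markers summed to 28.7 to 1005 CPM in HFD and 0.223 to 1987 CPM in chow. The part of these transcripts in the receptor values was not tested. In sorted pools, fewer cells of a type and less RNA per cell cannot be told apart.

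The receptors fell into 3 tiers by TPM, and the tiers were the same in HFD and chow. Cx3cr1 and Ccr2 were the highest pair in 8 of 8 libraries, and Cmklr1 and Cxcr4 were the next pair in 8 of 8. Ccrl2, Ccr1 and Fpr2 were far lower, and Fpr1 had counts in 1 library. Within the pairs the order was not fixed: Cx3cr1 was above Ccr2 in 5 of 8 libraries, 2 of 4 HFD and 3 of 4 chow, and Cmklr1 was above Cxcr4 in 3 of 8. This order depends on the exon lengths used, as by mean CPM Ccr2 was above Cx3cr1 and Cmklr1 above Cxcr4 in both diets. The highest pair held 74.2% to 80.3% of the summed TPM of the 8 receptors in HFD and 61.3% to 81.0% in chow. Mean TPM of Cx3cr1 exceeded that of 98.95% of the 10129 genes tested, and that of Ccr2 exceeded 98.7%, whereas Fpr2 exceeded 39.0%.

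**Figure D1:**
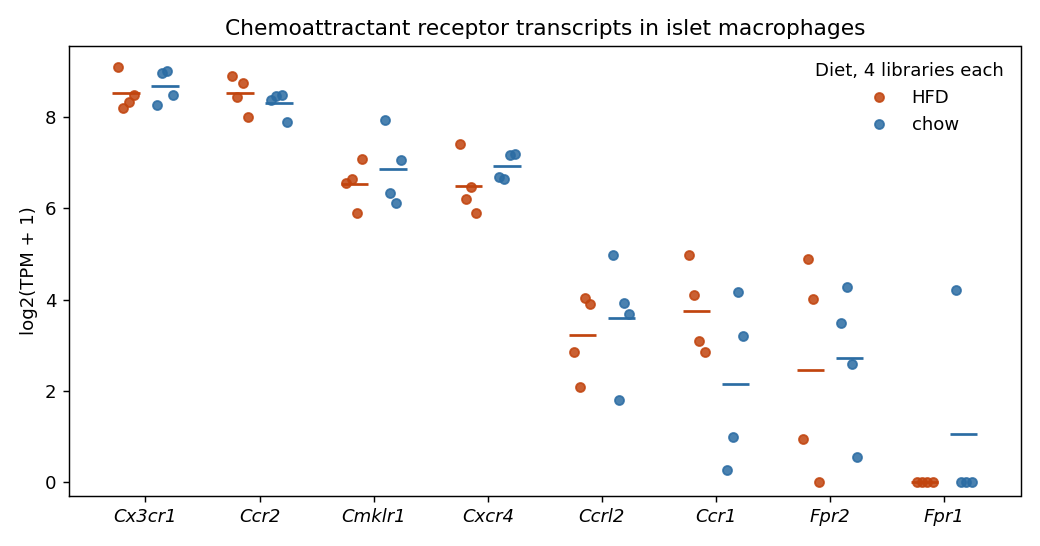
Level of each receptor gene in each library, as log2(TPM + 1), with HFD left of chow; each point is 1 library and each bar is the mean of 4 libraries. Cx3cr1 and Ccr2 sit highest in all 8 libraries, and the points of Ccr1 and Fpr2 spread widely within each diet.

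No diet difference in these genes passed the threshold. Of the 8 receptors 7 passed the filter on low counts (Fpr1 did not), and 0 of these 7 had an adjusted p under 0.05 by edgeR's quasi-likelihood test, beside 0 of 10129 genes tested (0%). At an unadjusted p under 0.05 the count was 0 of 7, beside 542 genes tested (5.35%). Also 0 of 7 had HFD and chow ranges that did not overlap, beside 343 genes (3.39%). DESeq2 called 0 of the 7, beside 28 of the 9434 genes to which it gave an adjusted p (0.297%). The limma-voom fit called 0 of the 7, beside 1 of 10129 genes (0.00987%). Of the 7, 3 had a higher and 4 a lower estimate in HFD, with a median log2 fold change of -0.30, beside -0.02 over all genes tested. All 7 had an edgeR adjusted p of 0.99, so only effect sizes and intervals are given below.

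**Figure D2:**
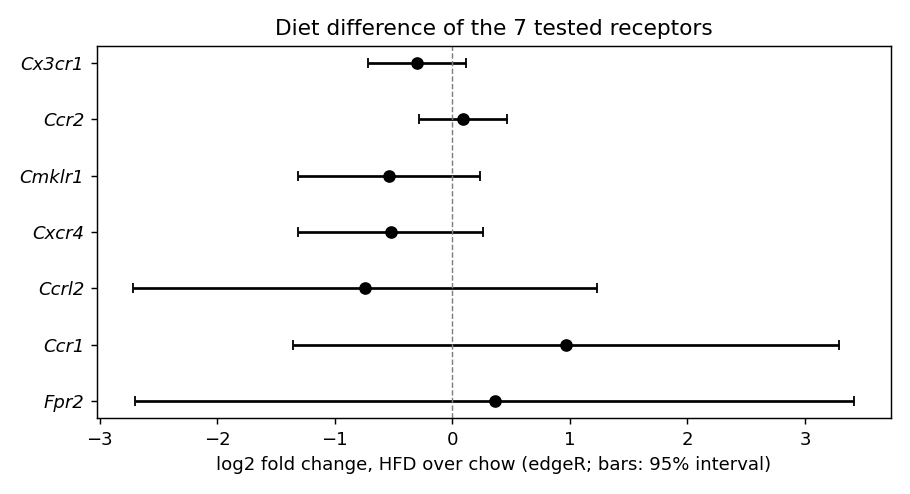
The log2 fold change of each tested receptor, HFD over chow, from edgeR, with bars for the approximate 95% interval. All 7 intervals include 0; they are narrow for Cx3cr1 and Ccr2 and wide for Ccrl2, Ccr1 and Fpr2.

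Cx3cr1 encodes the receptor for the membrane-bound chemokine fractalkine (Cx3cl1). The gene is ENSMUSG00000052336, on chromosome 9 from 119901616 to 120069879, minus strand (GRCm38). Cx3cr1 reached 811, 538, 524 and 643 CPM in HFD replicates 5 to 8, against 565, 871, 1033 and 634 CPM in chow replicates 1 to 4. HFD replicate 5 stood above the other HFD libraries and chow replicates 2 and 3 were the highest chow ones, and the 2 ranges overlapped. The mean was 629 ± 132 CPM in HFD and 776 ± 216 CPM in chow (SD, n = 4 each), a log2 fold change of -0.30 (SE 0.20; interval -0.72 to 0.11). It was -0.45 without HFD replicate 5 and -0.14 without chow replicate 3. An antisense gene, Gm33858, shares 78 exon bases with Cx3cr1 on the opposite strand, and no strand setting is stated for the counting.

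Ccr2 encodes the receptor for the monocyte chemoattractant Ccl2. The gene is ENSMUSG00000049103, on chromosome 9 from 124101950 to 124113557, plus strand. Ccr2 reached 1051, 964, 1042 and 682 CPM in HFD replicates 5 to 8, against 907, 917, 1063 and 627 CPM in chow replicates 1 to 4. HFD replicate 8 and chow replicate 4 were the lowest, the other 6 libraries lay between 907 and 1063 CPM, and the groups overlapped nearly throughout. The mean was 935 ± 173 CPM in HFD and 878 ± 182 CPM in chow (SD, n = 4 each), a log2 fold change of 0.090 (SE 0.18; interval -0.28 to 0.46), which was -0.040 without chow replicate 4. Among 7 monocyte markers, Ly6c2, Plac8 and Hp had 0 counts in all 8 libraries, and the summed marker level was 2.39 to 213 CPM in HFD and 1.11 to 56.4 CPM in chow. That sum was mainly F13a1 (mean 61.8 CPM in HFD and 22.7 CPM in chow) and Fn1 (mean 52.9 CPM in HFD and 4.66 CPM in chow). Summed stellate cell and fibroblast markers were likewise high in HFD replicates 5 to 7 (307, 173 and 186 CPM) and low in HFD replicate 8 (2.59 CPM), against 0.155 to 3.29 CPM in chow. The 2 libraries with the lowest monocyte marker sums, HFD replicate 8 (2.39 CPM) and chow replicate 1 (1.11 CPM), had Ccr2 at 682 and 907 CPM. Which cells gave the Ccr2 counts was not tested.

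The ratio of Cx3cr1 to Ccr2 compares, within each library, a known marker of many tissue-resident cells with a receptor known from inflammatory monocytes. Whether it measures resident against recruited cells in these pools was not tested. The log2 ratio of CPM, with 1 CPM added to each, was -0.37, -0.84, -0.99 and -0.086 in HFD replicates 5 to 8, and -0.68, -0.074, -0.041 and 0.015 in chow replicates 1 to 4. CPM is not corrected for length, so the sign of this ratio does not give the order of the genes. The order by TPM above rests on union exon lengths, 4505 bases for Cx3cr1 and 6760 bases for Ccr2. Which transcripts were expressed was not tested. The groups overlapped, with HFD replicates 5 and 8 within the chow range and chow replicate 1 within the HFD range. The mean was -0.57 ± 0.42 in HFD and -0.20 ± 0.33 in chow (SD, n = 4 each), a difference of -0.38. This difference did not pass the threshold (two-sided exact permutation test over 70 arrangements, p = 0.171). The smallest p possible in this test is 0.0286.

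**Figure D3:**
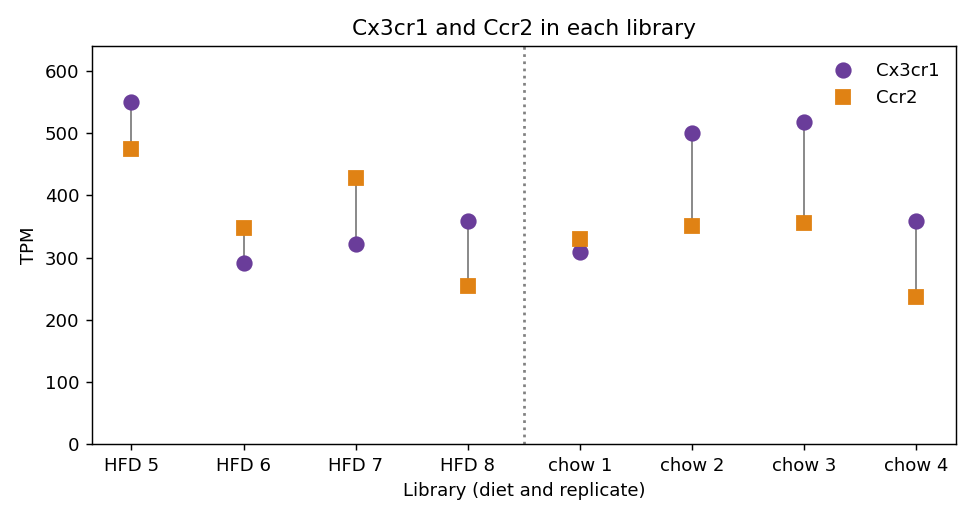
TPM of Cx3cr1 (circles) and Ccr2 (squares) in each library, joined by a line, with HFD replicates left of chow replicates. Cx3cr1 is the higher of the pair in 2 of 4 HFD and 3 of 4 chow libraries.

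Ccr1, a receptor for inflammatory chemokines such as Ccl3 and Ccl5, varied most between chow libraries among the 7 tested receptors. The gene is ENSMUSG00000025804, on chromosome 9 from 123962124 to 123968692, minus strand. It had 144, 109, 37 and 35 counts in HFD replicates 5 to 8 (28.4, 18.8, 7.73 and 6.97 CPM), and 1, 7, 103 and 39 counts in chow replicates 1 to 4 (0.223, 1.08, 21.2 and 9.13 CPM). All 4 HFD libraries were above chow replicates 1 and 2, yet chow replicate 3 exceeded 3 of them. The coefficient of variation was 65.7% in HFD and 123% in chow, and counting error alone gives 11.1% in HFD and 16.3% in chow. The mean was 15.5 ± 10.2 CPM in HFD and 7.90 ± 9.71 CPM in chow (SD, n = 4 each), and the log2 fold change of 0.97 (SE 1.11; interval -1.36 to 3.29) was 0.50 without HFD replicate 5 and 2.17 without chow replicate 3.

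Ccr1 and Ccr2 lie among chemokine receptor genes on chromosome 9, of which the 7 from Ccr9 to Ccr2 are described here over 435 kb. By mean TPM, Ccr2 was at 376 in HFD and 318 in chow, while Ccr1 was at 15.1 in HFD and 6.57 in chow. Cxcr6, a receptor of T and natural killer cells, was at 4.56 TPM in HFD and 11.4 TPM in chow. The other 4 of these genes, Ccr9, Xcr1, Ccr1l1 and Ccr3, averaged under the level of Ccr1 in both diets. Ccr1 is 76.32% identical in coding sequence to Ccr1l1 and 68.37% to Ccr3, and shares no 50-base window with either.

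**Figure D4:**
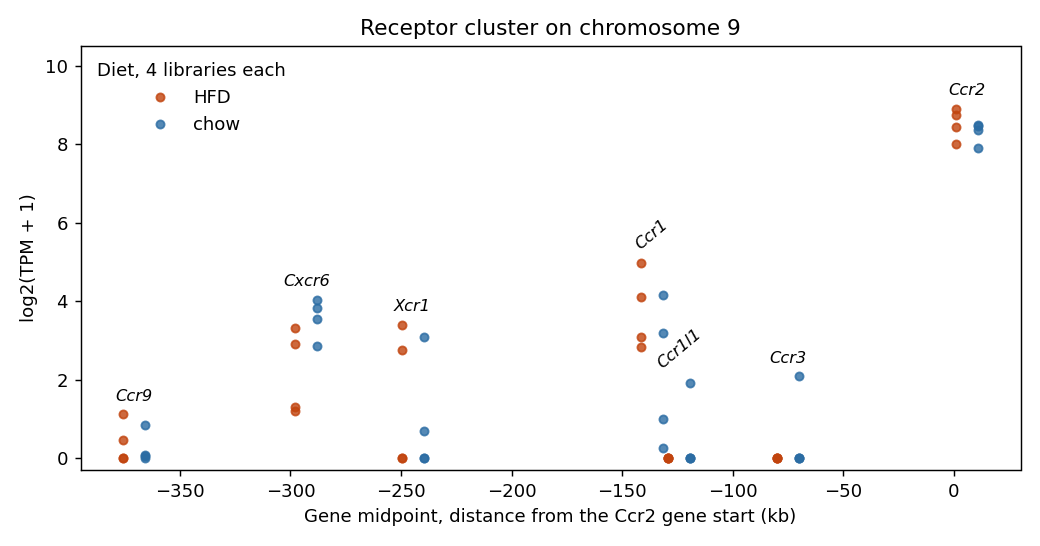
Level of 7 receptor genes of the chromosome 9 cluster, as log2(TPM + 1) against the distance of the gene's midpoint from the Ccr2 start in kb; each point is 1 library, and HFD and chow are drawn side by side. Ccr2 stands above the other 6 genes in all 8 libraries.

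Cxcr4, the receptor for Cxcl12 that holds leukocytes in bone marrow, is ENSMUSG00000045382, on chromosome 1 from 128588199 to 128592293, minus strand. Cxcr4 reached 99.5, 53.9, 57.1 and 41.8 CPM in HFD replicates 5 to 8, against 74.6, 69.4, 115 and 104 CPM in chow replicates 1 to 4. HFD replicates 6, 7 and 8 were below every chow library, and HFD replicate 5 lay within the chow range. The mean was 63.1 ± 25.1 CPM in HFD and 90.6 ± 22.1 CPM in chow (SD, n = 4 each), with a log2 fold change of -0.52 (SE 0.38; interval -1.31 to 0.26), or -0.83 without HFD replicate 5.

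Cmklr1 and Ccrl2 both bind chemerin, the product of Rarres2. Cmklr1 signals on binding, whereas Ccrl2 presents the ligand without coupling to G proteins. Cmklr1 (ENSMUSG00000042190, chromosome 5 from 113612354 to 113650426, minus strand) was at 104, 139, 71.7 and 183 CPM in HFD replicates 5 to 8, and 338, 104, 104 and 176 CPM in chow replicates 1 to 4. Chow replicate 1 stood alone at the top and the other 7 libraries overlapped between diets. The mean was 124 ± 47.6 CPM in HFD and 180.5 ± 110.2 CPM in chow (SD, n = 4 each), and the log2 fold change of -0.54 (SE 0.37; interval -1.32 to 0.24) was -0.045 without chow replicate 1.

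Ccrl2 (ENSMUSG00000043953, chromosome 9 from 111054486 to 111057519, minus strand) had 27, 20, 69 and 72 counts in HFD replicates 5 to 8 (5.32, 3.44, 14.4 and 14.3 CPM), and 144, 16, 79 and 52 counts in chow replicates 1 to 4 (32.1, 2.48, 16.2 and 12.2 CPM). Again chow replicate 1 was the highest, and both the highest and the lowest library were chow. The mean was 9.38 ± 5.82 CPM in HFD and 15.7 ± 12.3 CPM in chow (SD, n = 4 each), and the log2 fold change of -0.74 (SE 0.94; interval -2.72 to 1.23) was -0.14 without chow replicate 1. Chow replicate 1 also had the highest summed macrophage markers (3909 CPM, against 2734 to 3282 CPM in HFD), the fewest genes with a count (11902) and the lowest summed endocrine markers (432 CPM); the part of these in the Cmklr1 and Ccrl2 values was not tested.

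The formyl peptide receptors had the lowest mean TPM over all 8 libraries, but the order among the low genes was not fixed. Fpr2 averaged 11.2 TPM in HFD and 8.46 TPM in chow, Ccrl2 averaged 9.68 TPM in HFD and 14.7 TPM in chow, and Ccr1 averaged 15.1 TPM in HFD and 6.57 TPM in chow. Fpr2 responds to formylated peptides, serum amyloid A and annexin A1, and Fpr1 to bacterial formylated peptides. Their genes lie side by side on chromosome 17, with Fpr1 (ENSMUSG00000045551) from 17876471 to 17883940 on the minus strand and Fpr2 (ENSMUSG00000052270) from 17887824 to 17893952 on the plus strand. Fpr2 shares coding sequence with Fpr3, which was listed at 0 in all 8 libraries. Their longest identical run in the GENCODE M21 transcripts on GRCm38 is in capitals, with 15 flanking bases on each side in lower case, at chr17:17892945-17893068 of Fpr2 and chr17:17970670-17970793 of Fpr3, both on the plus strand; it is shown because reads from it fit both genes, and how the authors treated such reads is not given in the sources used here.
Fpr2: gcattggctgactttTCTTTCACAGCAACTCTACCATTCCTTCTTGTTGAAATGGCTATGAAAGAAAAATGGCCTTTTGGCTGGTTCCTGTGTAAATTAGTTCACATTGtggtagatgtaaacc
Fpr3: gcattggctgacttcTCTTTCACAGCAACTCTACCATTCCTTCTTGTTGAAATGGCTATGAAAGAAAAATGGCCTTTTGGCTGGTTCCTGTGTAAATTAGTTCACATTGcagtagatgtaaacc
The run is 94 bases long, and 77 of 1004 windows of 50 bases in the Fpr2 coding sequence (7.67%) also occur in Fpr3. The genes as annotated also share 48 exon bases on the same strand.

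Fpr2 had 2, 88, 34 and 0 counts in HFD replicates 5 to 8 (0.394, 15.2, 7.11 and 0 CPM), and 24, 59, 14 and 1 counts in chow replicates 1 to 4 (5.35, 9.13, 2.88 and 0.234 CPM). Low and high libraries occurred in both diets. The mean was 5.66 ± 7.12 CPM in HFD and 4.40 ± 3.78 CPM in chow (SD, n = 4 each), and the log2 fold change of 0.36 (SE 1.46; interval -2.70 to 3.42) was -0.82 without HFD replicate 6. Of 9 neutrophil markers 7 were at 0 in all 8 libraries, and the summed level, carried by Csf3r, was 35.6 to 122 CPM in HFD and 30.3 to 92.2 CPM in chow.

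Fpr1 had 0 counts in all 4 HFD libraries, which together allow up to 0.145 CPM, taken as 3 counts over the group. In chow it had 42 counts in replicate 1 (9.36 CPM) and 0 in the other 3 libraries. It failed the filter on low counts and got no test in the fit across genes; with no filter its edgeR adjusted p was 0.43.

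The other genes of the pathway gave 0 calls in every list (adjusted p under 0.05 by edgeR, DESeq2 or limma-voom). At an unadjusted edgeR p under 0.05, 1 G protein subunit (Gng12) and 1 chemotactic effector (Was) were counted, and 0 genes in the other lists, beside 5.35% of all genes tested. Of 13 other chemokine receptor genes, 7 had 0 counts in every library and 2 were tested, both with a lower estimate in HFD. These were Cxcr6 and Cxcr3, which is best known from T cells. The sum of 7 T and natural killer cell markers, 4 of them with no count in any library, was 0 to 0.344 CPM in HFD and 0 to 1.70 CPM in chow. Which cells gave the Cxcr6 and Cxcr3 counts was not tested. Cxcr3 averaged 1.44 ± 2.50 CPM in HFD and 12.6 ± 13.6 CPM in chow (SD, n = 4 each), with a log2 fold change of -3.09 (SE 1.66; edgeR adjusted p = 0.96). Of 4 atypical receptors, which scavenge chemokines, 3 had no count and none was tested.

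Of 14 other chemoattractant receptors 7 were tested, with 1 higher and 6 lower estimates in HFD and a median log2 fold change of -0.09. Among them were C5ar2, a receptor for complement C5a, Gpr183, which senses oxysterols, and Cysltr1, which binds cysteinyl leukotrienes. Cysltr1 averaged 118 ± 35.1 CPM in HFD and 177 ± 49.9 CPM in chow (SD, n = 4 each), with a log2 fold change of -0.59 (SE 0.30; edgeR adjusted p = 0.94). The log2 fold change was -0.52 for C5ar2 and -0.69 for Gpr183, neither past the threshold.

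Of 18 ligands of the 8 receptors, 8 were tested, with 6 higher and 2 lower estimates in HFD and a median log2 fold change of 0.54. Anxa1, which encodes the Fpr2 ligand annexin A1, averaged 9.45 ± 5.81 CPM in HFD and 1.64 ± 1.47 CPM in chow (SD, n = 4 each), with a log2 fold change of 2.50 (SE 1.28; edgeR adjusted p = 0.94). The stellate cell and fibroblast sum in HFD replicates 5 to 7 exceeded that in each chow library, and its part in the ligand and Gng12 values was not tested. The chemokines Ccl3 and Ccl6, with log2 fold changes of 0.65 and 0.58, did not pass either. Cx3cl1, the Cx3cr1 ligand, had 0 counts in all 8 libraries. Rarres2, the chemerin gene, averaged 1.79 CPM in HFD and 2.00 CPM in chow.

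**Figure D5:**
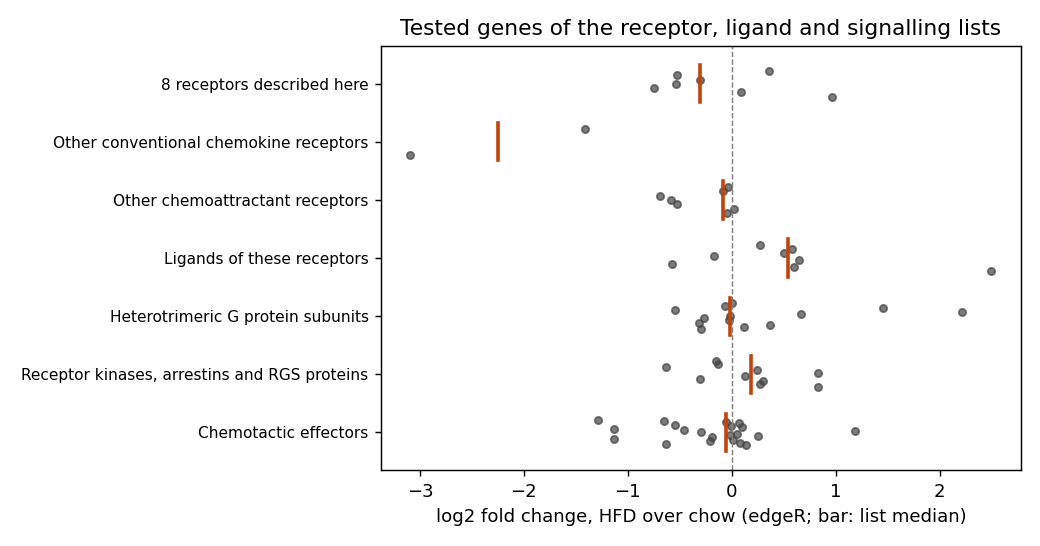
The log2 fold change, HFD over chow, of each tested gene in the receptor, ligand and signalling lists; points are genes and the bar is the list median. The 7 tested receptors of the top line have a median of -0.30, and no gene in any list passed the threshold.

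Downstream of the receptors, 13 G protein subunits were tested, with 5 higher and 8 lower estimates in HFD. Gng12, a gamma subunit, averaged 57.9 ± 25.7 CPM in HFD and 21.1 ± 9.57 CPM in chow (SD, n = 4 each), with a log2 fold change of 1.45 (SE 0.55; edgeR adjusted p = 0.75). Gnb4, a beta subunit, had a log2 fold change of 2.22 and Gng10 of -0.55, neither past the threshold. Of the receptor kinases, arrestins and RGS proteins, which switch the receptors off, 10 were tested, with 6 higher and 4 lower estimates. Rgs10 had a log2 fold change of -0.64, Arrb2 of -0.31 and Adrbk1, a receptor kinase, of 0.83, none past the threshold.

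Of 21 chemotactic effectors, all tested, 8 had higher and 13 lower estimates in HFD. Plcb3, a phospholipase C, was lower in all 4 HFD libraries than in any chow library, as 1 of 21 effectors whose groups did not overlap, beside 3.39% of all genes tested in either direction. It averaged 14.1 ± 2.09 CPM in HFD and 30.9 ± 6.27 CPM in chow (SD, n = 4 each), with a log2 fold change of -1.13 (SE 0.63; edgeR adjusted p = 0.97). Was, which links Cdc42 to actin assembly, had a log2 fold change of -1.29 (SE 0.58; edgeR adjusted p = 0.89), and Plcb2 of -0.46.

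Across the 8 libraries, the 2 genes most like each tested receptor were taken by the Pearson correlation of log2(CPM + 1), among genes averaging at least 20 CPM. Libraries and depth are shared by all genes, and the best of 5424 or 5425 correlations over 8 points is high by choice. The pairs were Arhgap35 and Tmed9 for Cx3cr1 (r = 0.94 each), Pitpnm1 (r = 0.95) and Heatr5b (r = 0.93) for Ccr2, and Nudcd3 (r = 0.98) and Cd47 (r = 0.95) for Ccr1. For Cxcr4 they were Nfkb1 (r = 0.96) and AU019823 (r = 0.93), and for Ccrl2 they were Scaf4 (r = 0.95) and Rbpj (r = 0.93). For Cmklr1 they were Tcf20 (r = 0.94) and Phb (r = 0.93), and for Fpr2 they were Metap1 (r = 0.93) and Ptger1 (r = 0.90).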

How the data were processed

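RNA was sequenced from 8 pools of sorted islet macrophages, 4 on each diet. Per the labels' protocols, 500 pg of RNA was amplified with the Ovation RNA-Seq System V2. The submitters' processing notes name FastQC, Trim Galore, STAR and the GRCm38 genome. Tool versions, the counting program and its annotation were not given in the sources. The authors deposited expected counts per gene, not scaled between libraries; 7.66% to 8.32% of nonzero values per library were not whole, none of them in the 8 receptors. Without molecular identifiers, the floors cover counting error only. The intervals come from the fit and also carry the spread between libraries.

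Counts were rounded and tested with edgeR 4.0.16 in R 4.3.3 (TMM scaling, filterByExpr on diet, robust quasi-likelihood fit with diet as the only term, two-sided, Benjamini-Hochberg adjustment over 10129 genes, threshold 0.05). The code was tested on simulated data. TPM used union exon lengths from GENCODE M21, in which 48058 of 48440 identifiers were found; coordinates are 1-based. Intervals are the estimate and SE on the fit's moderated degrees of freedom. A count of 0 allows 0.464 to 0.702 CPM in 1 library (3 counts). No 2 libraries agreed within sampling noise (the chi-square statistic divided by its degrees of freedom was at least 38.4 in 28 pairs). Whether pools are independent is not stated beyond their labels, so p-values rest on the spread between libraries, not between mice. Alternatives were other scalings (RLE, upper quartile, library totals), filters (none, or 5 CPM in 4 libraries), unrounded counts, a fit that was not robust, DESeq2 1.42.0, limma-voom (limma 3.58.1) with quality weights, other pseudocounts for the ratio (0.5 and 5 CPM), and each library left out. The receptors, lists and tests were chosen with earlier results of these data known. Named genes are all 8 receptors, the 3 with the smallest p in each other list, and the 2 most correlated with each tested receptor; some listed genes are not reported here, and other genes were named as markers, ligands or cluster neighbours.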

Additional observations from a re-analysis of the deposited data

Results flagged for a closer look

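Fpr1 in chow replicate 1, at 9.36 CPM, stood apart from the other 3 chow libraries, which were at 0: its gap to the nearest library was the whole range of the group, above Dixon's critical value for 4 libraries. That critical value, which chance passes in about 1 in 20 groups, assumes normally distributed values, and the gap equals the range by construction whenever 1 library alone has counts, so no error rate can be given for this gene.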

How the results depend on the processing

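No tested receptor was called under any of the 17 alternatives to the gene fit; Fpr1 was tested only with no filter. The number of genes called over the whole table was 0 with edgeR, 45 with no filter, 28 with DESeq2, 1 with limma-voom, and 0 to 11 when each library was left out (11 without HFD replicate 8). The log2 fold change of Fpr2 was -0.11 with limma-voom and -0.82 to 1.00 when each library was left out, and that of Ccr2 was -0.040 to 0.21; the cause was not tested. The other 5 tested receptors kept their direction under these alternatives. The difference in the Cx3cr1 to Ccr2 ratio was -0.54 to -0.24 when each library was left out and did not pass the threshold under any alternative run. The labels name no pairing of HFD with chow libraries, so no paired analysis was run. Counts were low for Fpr1, Fpr2, Ccr1 and Ccrl2, at 0 to 144 per library. The coefficient of variation of Ccr1, Ccrl2 and Fpr2 exceeded counting error in both diets. For Ccrl2 it was 62.1% in HFD and 78.3% in chow, against 14.6% in HFD and 11.7% in chow from counting alone. The source of this spread was not tested.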

Other observations

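Several sparse receptor genes of the chromosome 9 cluster had their counts in a few libraries, as Fpr1 did. Xcr1, a receptor of cross-presenting dendritic cells, had 0, 101, 44 and 0 counts in HFD replicates 5 to 8, and 0, 83, 6 and 0 counts in chow replicates 1 to 4. Ccr9, a gut-homing receptor, had 20, 0, 0 and 8 counts in HFD replicates 5 to 8, and 1, 0, 18 and 1 counts in chow replicates 1 to 4. Ccr3 had 0 counts in HFD and 23 in chow, all in replicate 3, and Ccr1l1 had 0 counts in HFD and 6 in chow, all in replicate 1. The HFD and chow values overlapped for each of these genes. Dendritic cell markers, Xcr1 among them, summed to 137 to 266 CPM in HFD and 247 to 298 CPM in chow. That sum was mainly Siglech (mean 156 CPM in HFD and 187 CPM in chow) and Clec9a (mean 24.4 CPM in HFD and 71.0 CPM in chow), neither past the threshold. The part of such cells in the receptor values was not tested. Stellate cell and fibroblast markers summed to 307, 173, 186 and 2.59 CPM in HFD replicates 5 to 8, against 0.155 to 3.29 CPM in chow, and their part in the receptor values was not tested.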
